A study of Homo sapiens with 14 samples.

Results

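The interferon response genes are 39 human genes, chosen by name for their known induction by interferon, that were followed in MCF-10A cells on day 2 after retroviral infection. All 39 were found in the deposited table, in 37 loci, because IFI44 and IFI44L, and IFIT1 and IFIT5, are counted together in it. IFITM1 shares its locus with IFITM2 and IRF9 shares its locus with RNF31, so those values are sums over neighbours. A locus was analysed if it reached 1 FPKM (fragments per kilobase of transcript, scaled to the mapped fragments of the library) in at least 2 of the 14 libraries, which 35 loci with 37 of the genes did, of 13137 named loci that did so among 34071 loci in all. MX1 stayed just outside, with 2.44 FPKM in Hygro vector replicate 1 and 0.0346 to 0.846 in the others, and HERC5 just inside, with 4 libraries between 1.28 and 2.68 FPKM. CMPK2 was listed at 0 in all libraries but one, which had 0.022 FPKM. A locus could therefore pass through 1 group in which it was high.

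MCF-10A is a human breast epithelial cell line that grows in culture without being tumorigenic. All 14 libraries, 2 in each of 7 groups, came from infected cells, and uninfected cells were not analysed here. YAP 5SA cells carried a hyperactive form of YAP, the coactivator of TEAD factors. The other 4 infected groups carried MRTFB dN, a form of the SRF coactivator MRTFB that no longer binds G-actin. MRTFB dN dPY also lost YAP binding, MRTFB dN Y305A also lost SRF binding, and MRTFB dN Y305A/dPY lost both. The controls carried an empty pMSCV vector, either the Puro vector or the Hygro vector. The labels do not say which vector carried each construct, whether the cells were selected with a drug, or whether the 2 replicates were separate infections, so p-values measure only the spread between these libraries. MRTFB forms were set against the Puro vector and YAP 5SA against the Hygro vector. Each sample is a population of cells, in which fewer responding cells and less RNA per cell cannot be told apart.

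Cells make type I and type III interferons when sensors such as RIG-I, MDA5, cGAS with STING, or Toll-like receptors meet foreign RNA or DNA. Secreted interferon binds its receptor on the same or neighbouring cells, the kinases JAK1 and TYK2 are activated, and a complex that holds STAT2 and IRF9 enters the nucleus and binds interferon-stimulated response elements in promoters. The induced genes restrict viral entry, RNA, assembly and release, and several encode the sensors and factors of the pathway itself. In epithelial cells type III interferons (the lambda interferons) act beside interferon beta.

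Promoters of the 5 genes with the largest SD between libraries among those with a promoter window are shown (OAS2, which ranks among them, has no window here), because they hold the letters that the complex of STAT2 and IRF9 and the IRF factors are known to bind. The letters searched were GAAA, any 2 bases and GAAA again, on either strand (TTTC, any 2 bases and TTTC when read on the other), in RefSeq windows of 300 bases (250 before and 50 after the gene start, GRCh38.p14). A match was present in 20 of the 31 members with a window (64.5%), against 996 of 27305 windows of all genes (3.65%). Among members that passed the filter it was 19 of 29 (65.5%). A match is a description of letters and not of binding. The 180 bases before the start are given 5′ to 3′ on the strand of the gene, with matches in capitals; in ISG15 and BST2 a pair of matches overlaps and is written as 1 run.
ISG15 (chr1:1013317-1013496, plus strand): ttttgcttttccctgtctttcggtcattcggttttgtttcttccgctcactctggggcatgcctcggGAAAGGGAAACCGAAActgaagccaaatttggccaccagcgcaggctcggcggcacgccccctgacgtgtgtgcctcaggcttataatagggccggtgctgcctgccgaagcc
IFI6 (chr1:27672193-27672372, minus strand): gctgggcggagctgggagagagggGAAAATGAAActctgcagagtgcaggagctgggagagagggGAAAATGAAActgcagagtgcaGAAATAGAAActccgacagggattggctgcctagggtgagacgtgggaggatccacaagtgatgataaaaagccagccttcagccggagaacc
IFI27 (chr14:94110556-94110735, plus strand): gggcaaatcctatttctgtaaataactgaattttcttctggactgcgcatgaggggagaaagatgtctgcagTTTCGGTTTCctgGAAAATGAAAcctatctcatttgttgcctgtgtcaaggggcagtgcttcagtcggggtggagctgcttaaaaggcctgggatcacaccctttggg
IFIT3 (chr10:89327817-89327996, plus strand): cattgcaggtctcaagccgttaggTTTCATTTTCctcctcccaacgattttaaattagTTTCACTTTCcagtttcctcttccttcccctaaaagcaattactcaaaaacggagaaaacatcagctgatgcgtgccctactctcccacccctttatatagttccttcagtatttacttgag
BST2 (chr19:17405631-17405810, minus strand): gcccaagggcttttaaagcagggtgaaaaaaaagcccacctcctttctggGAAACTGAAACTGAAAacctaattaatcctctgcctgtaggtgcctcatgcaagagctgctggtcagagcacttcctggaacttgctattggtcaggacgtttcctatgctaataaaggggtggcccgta
ISG15, IFIT3 and BST2 had 2 matches each in the window, IFI27 had 1 on each strand, and IFI6 had 3. OAS1, HERC6 and RSAD2, which also varied widely between libraries, had 0.

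RNA of the constructs was found where the labels place it. MKL2, under which MRTFB is listed, had 610.2 and 343 FPKM in MRTFB dN Y305A/dPY, 404 and 294 in MRTFB dN Y305A, 286 and 171 in MRTFB dN dPY and 299.5 and 165 in MRTFB dN, against 6.6 and 3.66 in the Puro vector. YAP1 had 625 and 529 FPKM with YAP 5SA, against 32.4 and 23.3 with the Hygro vector. Values of a group are given here and below in the order replicate 1, replicate 2. The files hold no counts; depth relative to Hygro vector replicate 1, taken from steps between low values, was 0.31 (Puro vector replicate 1) to 1.39 (YAP 5SA replicate 1). Puro vector replicate 1 stood apart, with 4780 unnamed loci at 1 FPKM or more, against 211 to 669 in the others. MRTFB dN dPY replicate 1 is listed at 0 for nearly all loci after PPIA on chromosome 7 and on chromosomes 8, 9 and X; its zeros there were treated as missing, which affects DDX58, SAMD9 and SAMD9L among the members. Of the epithelial markers, CDH1 had 79.3 to 341 FPKM and EPCAM 45.2 to 396 over all libraries, while KRT8 and KRT18 were listed at 0 in replicate 1 of MRTFB dN Y305A and of MRTFB dN Y305A/dPY and were high in the others. Of the 7 leukocyte markers PTPRC and CD3E were at 0 to 0.0472 FPKM, while CD14, LYZ and the shared locus of CD68 passed the filter. The summed level of the 7 was 297 to 807 FPKM over all libraries. Mean log2(FPKM + 1) of CD14 was 5.99 in the Puro vector, 6.10 in MRTFB dN Y305A and 1.77 in MRTFB dN, a difference of 4.34 ± 0.93 between the last 2 (limma, adjusted p = 0.0086). Of the 3 plasmacytoid dendritic cell markers LILRA4 and IL3RA were at 0 wherever measured. The summed level of the 3, with CLEC4C, was 0 to 0.047 FPKM, highest in Hygro vector replicate 1. Of the 4 endothelial markers CDH5 passed the filter, and their summed level was 4.66 to 14.8 FPKM in the Y305A forms, 0.76 to 2.86 in the SRF-binding forms and 0.0952 to 0.349 in the other groups.

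The members did not form a constant background of infection. They were high in some libraries of some groups and low in others, including among empty vectors. The median over the 35 loci was 75.3 and 73.8 FPKM in MRTFB dN Y305A/dPY and 64.6 and 20.4 in MRTFB dN Y305A. In MRTFB dN it was 13.6 and 4.49, in MRTFB dN dPY 21.5 (over 32 loci) and 1.86, and in YAP 5SA 2.62 and 2.73. Empty vectors covered both ends, with 2.56 and 2.1 FPKM in the Puro vector and 64.1 and 5.69 in the Hygro vector. The highest library was MRTFB dN Y305A/dPY replicate 1 for 15 of the 35 loci, MRTFB dN Y305A/dPY replicate 2 for 9, Hygro vector replicate 1 for 8, MRTFB dN dPY replicate 1 for 2 and MRTFB dN replicate 1 for 1. The lowest was MRTFB dN dPY replicate 2 for 15 loci, a YAP 5SA library for 2 (replicate 1) and 10 (replicate 2), a Puro vector library for 4 (replicate 1) and 3 (replicate 2), and MRTFB dN replicate 1 for 1.

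**Figure D1:**
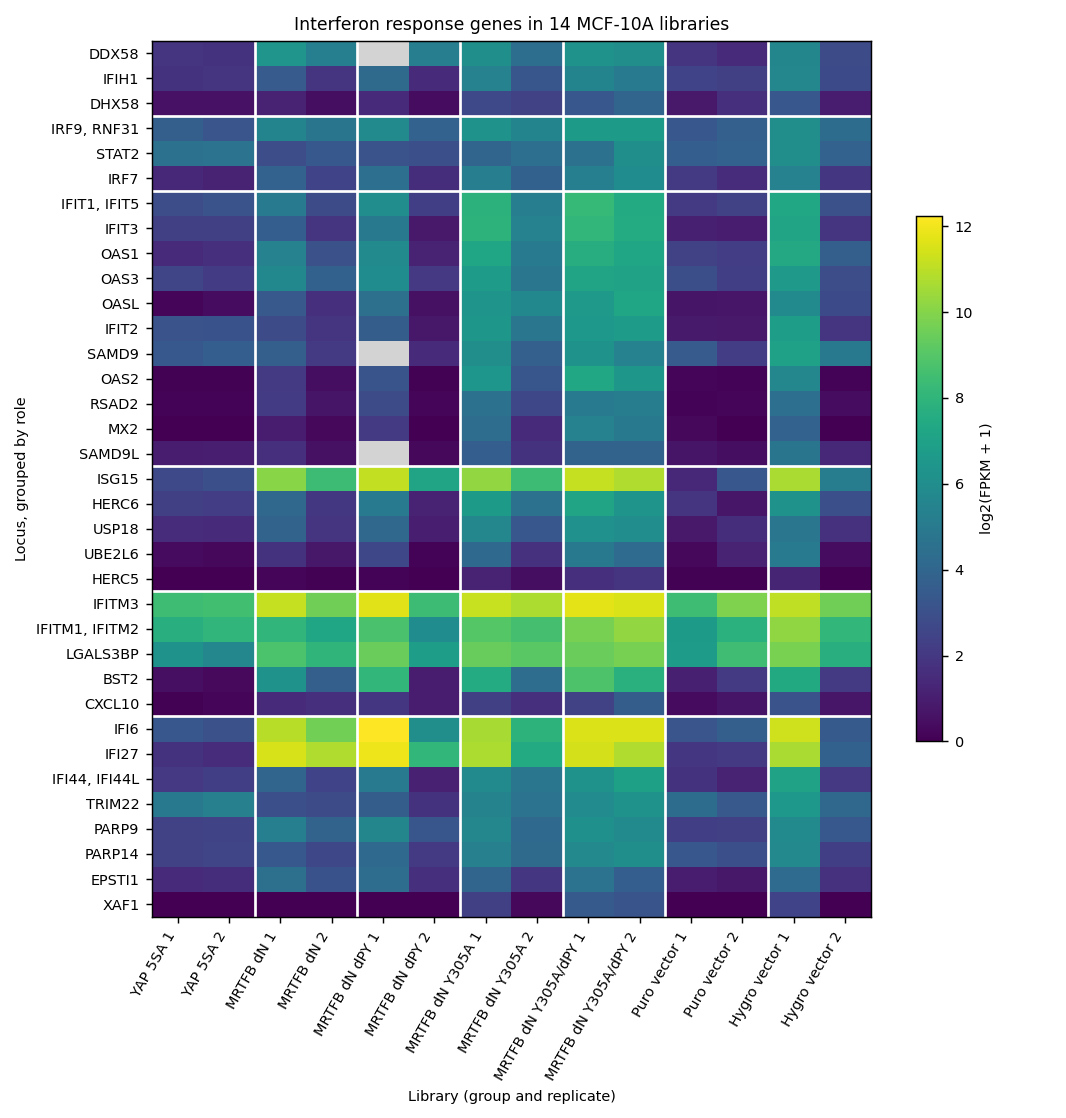
Level of each locus, log2(FPKM + 1) in color, in each of the 14 libraries (columns); loci (rows) are ordered by role, and grey cells are missing values of MRTFB dN dPY replicate 1. Columns of YAP 5SA, the Puro vector, Hygro vector replicate 2 and MRTFB dN dPY replicate 2 are mostly dark, while those of MRTFB dN Y305A/dPY and Hygro vector replicate 1 are mostly bright.

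The replicates of a group often differed widely in these loci. In the Hygro vector, 35 of 35 loci were higher in replicate 1 by more than 1 on the log2(FPKM + 1) scale, with a median gap of 3.29 and gaps of 1.25 (HERC5) to 7.90 (IFI6). Of all tested loci 3.73% were that much higher in that library and 6.82% that much lower. MRTFB dN dPY had 28 of 32 loci higher by more than 1 in replicate 1 (median gap 2.80), against 2.85% of all loci higher and 1.99% lower. MRTFB dN Y305A had 24 of 35 (median gap 1.87), against 3.62% of all loci higher and 3.48% lower, and MRTFB dN had 21 of 35 (median gap 1.36), against 2.11% higher and 2.8% lower. The replicates of the other 3 groups were close. In MRTFB dN Y305A/dPY 1 locus was higher and 2 were lower by more than 1 (median gap 0.18, 3.38% of all loci higher and 4.92% lower), in YAP 5SA none was either (−0.00, 0.921% and 0.175%), and in the Puro vector 2 were higher and 5 lower (−0.00, 9.43% and 9.2%). The MKL2 level was also higher in replicate 1 of every MRTFB group, but in the Hygro vector, without MRTFB, it was 4.57 and 3.06 FPKM; the part of the MKL2 level in the gaps was not tested. Relative depth was 1.00 and 0.80 in the Hygro vector and 0.51 and 0.77 in MRTFB dN dPY.

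**Figure D2:**
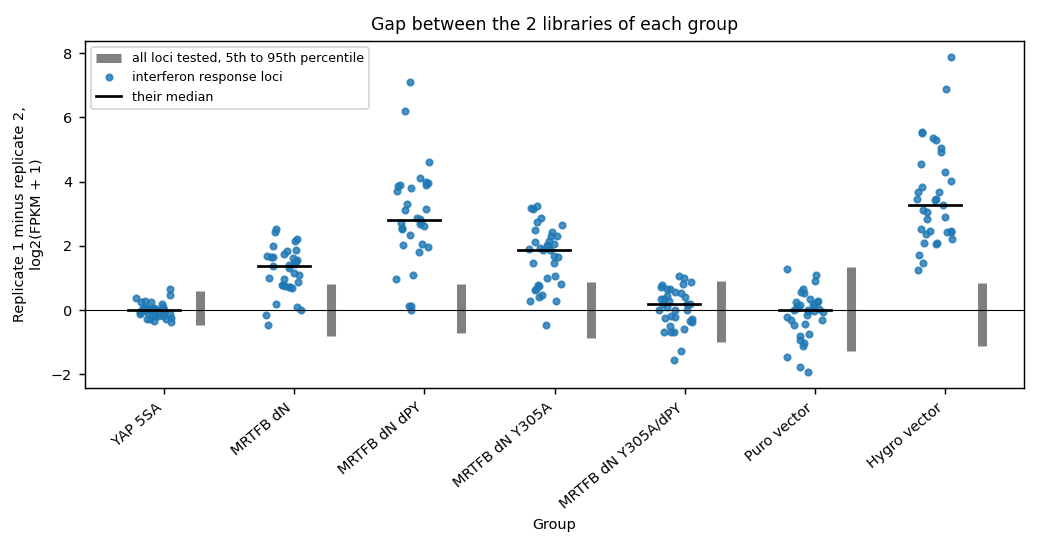
Difference between replicate 1 and replicate 2 in log2(FPKM + 1) for each interferon response locus (points) and their median (black line) in each group, beside the span from the 5th to the 95th percentile of all tested loci (grey bar). The points of the Hygro vector lie between 1.25 and 7.90, all above its grey bar.

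Cells with MRTFB dN Y305A/dPY were compared with the Puro vector to see what the form without SRF and YAP binding changes. Of the 35 loci 29 rose and none fell (limma, Benjamini-Hochberg adjusted p under 0.05), against 15% of all loci that rose and 11.4% that fell, and the median log2 fold change was 3.85, against 0.08 over all loci. The largest increases were those of IFI27, which rose by 9.08 ± 1.87 (adjusted p = 0.0087), of ISG15, which rose by 8.59 ± 1.64 (adjusted p = 0.0068), and of IFI6, which rose by 8.11 ± 2.28 (adjusted p = 0.027), on the log2(FPKM + 1) scale with the SE from limma. These folds are 540, 386 and 277. The loci that did not pass were IFIH1, PARP14, IFITM3, TRIM22, LGALS3BP and STAT2, with log2 fold changes of 1.58 to 2.85. In all 35 loci both MRTFB dN Y305A/dPY libraries lay above both Puro vector libraries, as they did in 34.1% of all loci. Here and below, counts without 1 library or with other settings come without the share of all loci in that fit. The exception is the other empty vector as control. Changes in those counts cannot be read as particular to these loci. The count was 0 without MRTFB dN Y305A/dPY replicate 1, 16 without replicate 2, 6 without Puro vector replicate 1 and 18 without Puro vector replicate 2, while the median stayed between 4.03 and 4.18. No locus passed against the Hygro vector, whose libraries differed from each other (limma), where 1.31% of all loci rose and 1.38% fell. The median was 1.93 and 34 of 35 fold changes were above 0. At an unadjusted p under 0.05 were 9 loci. Such counts, here and below, come without the share of all loci at that level.

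MRTFB dN Y305A, which lacks only SRF binding, gave a smaller count against the same Puro vector libraries. Of 35 loci 9 rose and none fell, against 14.2% and 11% of all loci, with a median log2 fold change of 2.68. IFI27 rose by 7.08 ± 1.87 (adjusted p = 0.023), ISG15 by 6.95 ± 1.64 (adjusted p = 0.015), IFIT3 by 5.67 ± 1.61 (adjusted p = 0.029), OASL by 5.31 ± 1.18 (adjusted p = 0.013) and IFIT2 by 4.79 ± 1.31 (adjusted p = 0.025). HERC6 rose by 4.33 ± 1.31 (adjusted p = 0.036), DDX58 by 3.60 ± 0.81 (adjusted p = 0.015) and the locus of IRF9 by 2.37 ± 0.65 (adjusted p = 0.026). PARP9 rose by 2.61 ± 0.87, with an adjusted p that rounds to the threshold of 0.05. In all 35 loci both libraries lay above both of the Puro vector (36.2% of all loci did). The count was 0 without MRTFB dN Y305A replicate 1 and 15 without replicate 2, 0 without Puro vector replicate 1 and 4 without replicate 2, and 0 in a fit of the 4 compared libraries alone. No locus passed against the Hygro vector (limma, median 0.76, with 0 at an unadjusted p under 0.05), where 1.32% of all loci were higher and 1.28% lower.

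In the forms that still bind SRF fewer members passed the threshold. Against the Puro vector 5 of 35 loci rose in MRTFB dN and none fell, while 21.8% of all loci rose and 15% fell, so the share of members called was below that of all loci. They were IFI27, which rose by 9.14 ± 1.87 (adjusted p = 0.0042), ISG15 by 6.86 ± 1.64 (adjusted p = 0.009), IFI6 by 6.81 ± 2.28 (adjusted p = 0.038), DDX58 by 4.18 ± 0.81 (adjusted p = 0.004) and EPSTI1 by 2.92 ± 1.00 (adjusted p = 0.042). In MRTFB dN dPY 3 loci rose and none fell, against 21% and 14.8% of all loci: IFI27 by 7.99 ± 1.87 (adjusted p = 0.0082), ISG15 by 6.78 ± 1.64 (adjusted p = 0.0096) and DDX58 by 3.57 ± 1.00 (adjusted p = 0.021), the last in 1 library of this group. The median log2 fold change was 1.32 in each of these comparisons, and the 21 loci of MRTFB dN and 9 of MRTFB dN dPY whose libraries lay above both Puro vector libraries compare with 38% and 38.4% of all loci. The count in MRTFB dN was 2 without its replicate 1 or without Puro vector replicate 1, and 3 without either of the others. In MRTFB dN dPY it was 1 without its replicate 1, 8 without its replicate 2 and 1 without Puro vector replicate 1, and the median was −0.18 without its replicate 1. Against the Hygro vector the direction turned: the median was −1.23 in MRTFB dN, with 26 of 35 fold changes below 0, and −0.90 in MRTFB dN dPY, with 30 below 0. None of the 35 rose there, and SAMD9 and TRIM22 were lower in both forms; of all loci 12% were higher and 7.1% lower in MRTFB dN, and 12.3% higher and 8.24% lower in MRTFB dN dPY, so a count of 2 lower is near or below that share. The log2 fold change of SAMD9 was −3.10 ± 0.89 (adjusted p = 0.036) in MRTFB dN and −4.45 ± 1.09 (adjusted p = 0.017) in MRTFB dN dPY, and that of TRIM22 was −2.42 ± 0.74 (adjusted p = 0.043) in MRTFB dN and −2.62 ± 0.74 (adjusted p = 0.029) in MRTFB dN dPY. The SAMD9 value in MRTFB dN dPY comes from replicate 2 alone, with 1.88 FPKM, so no spread within that group was measured. All 4 comparisons with the Puro vector share its 2 libraries.

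Loss of SRF binding was tested directly by setting the 4 libraries of the Y305A forms (MRTFB dN Y305A and MRTFB dN Y305A/dPY) against the 4 of the SRF-binding forms (MRTFB dN and MRTFB dN dPY). Of 35 loci 18 were higher and none lower, against 13.9% and 16.7% of all loci, with a median log2 fold change of 2.27. OAS2 differed by 4.43 ± 1.12 (adjusted p = 0.012), IFIT3 by 4.42 ± 1.14 (adjusted p = 0.013), OASL by 3.92 ± 0.84 (adjusted p = 0.0045) and IFIT2 by 3.88 ± 0.92 (adjusted p = 0.0083). MX2, SAMD9, HERC6, RSAD2, TRIM22, SAMD9L, USP18, XAF1, PARP14, DHX58, STAT2, HERC5 and the loci of IFIT1 and IFITM1 also passed, with log2 fold changes of 1.20 to 3.23. Outside the Y305A forms, HERC5 and XAF1 reached 1 FPKM only in Hygro vector replicate 1. They passed the filter through the Y305A forms, so their place in these counts is no independent result. In 12 of the 35 loci all 4 libraries of the Y305A forms lay above all 4 of the SRF-binding forms (18.2% of all loci), and in none did they lie below (20.2% of all loci). IFI27 at −0.49 ± 1.32 (adjusted p = 0.82), ISG15 at 0.95 ± 1.16 (adjusted p = 0.59), IFI6 at 0.71 ± 1.61 (adjusted p = 0.79), DDX58 at 0.17 ± 0.64 (adjusted p = 0.88) and EPSTI1 at 0.14 ± 0.71 (adjusted p = 0.91) did not pass. The MKL2 level moved with this contrast, with 294 to 610.2 FPKM in the Y305A forms, against 165 to 299.5 in the SRF-binding forms, and its part in the result was not tested. So did the summed level of the 7 leukocyte markers, with 666 to 807 FPKM in the Y305A forms, against 334 to 449 in the SRF-binding forms; CD68, which shares its locus with EIF4A1 and other genes, and CD14 made up nearly all of it, while PTPRC and CD3E were at or near 0 as given above. The summed endothelial markers given above moved in the same direction. The 7 mammary basal epithelium markers moved the other way, with summed levels of 3745 to 13501 FPKM in the Y305A forms, against 19991 to 47647 in the SRF-binding forms, while the 6 fibroblast markers overlapped, at 0.817 to 3.27 FPKM against 2.24 to 7.32. The part of these lists in the result was not tested. The count was 8 without MRTFB dN dPY replicate 2, 9 without MRTFB dN replicate 2, 11 without MRTFB dN Y305A replicate 1 or MRTFB dN Y305A/dPY replicate 2, and 28 without MRTFB dN dPY replicate 1.

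MRTFB dN Y305A alone against MRTFB dN gave 0 loci past the threshold (limma, median 1.62), against 6.13% of all loci higher and 10.6% lower. At an unadjusted p under 0.05 were 7, given without the share of all loci at that level. A fit of these 4 libraries alone gave 4 past the threshold. A replicate block, which takes same-numbered libraries as paired, raised the count of 0, as given below with the other settings. The labels name no shared batch. In 20 of the 35 loci both MRTFB dN Y305A libraries lay above both MRTFB dN libraries (29.1% of all loci), and in 1 they lay below (28% of all loci). Loss of YAP binding was tested in the same way. MRTFB dN dPY against MRTFB dN gave 0 loci in limma (0 at an unadjusted p under 0.05), against 0.145% and 0.0913% of all loci, with a median of −0.12. In 3 loci MRTFB dN dPY lay below both libraries of MRTFB dN (17.3% of all loci). These were DDX58, SAMD9 and SAMD9L, each measured in only 1 library of MRTFB dN dPY. Both dPY forms against both forms that carry the PY motif also gave 0 (0 at an unadjusted p under 0.05), against 0.00761% and 0.0152% of all loci, with a median of 0.48. The median of MRTFB dN dPY against MRTFB dN was 0.47 without MRTFB dN replicate 1 and 1.32 without MRTFB dN dPY replicate 2, so no direction can be given. With SE of 0.36 (HERC5) to 2.28 (IFI6) in the comparison of MRTFB dN dPY with MRTFB dN, a difference could go unseen.

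**Figure D3:**
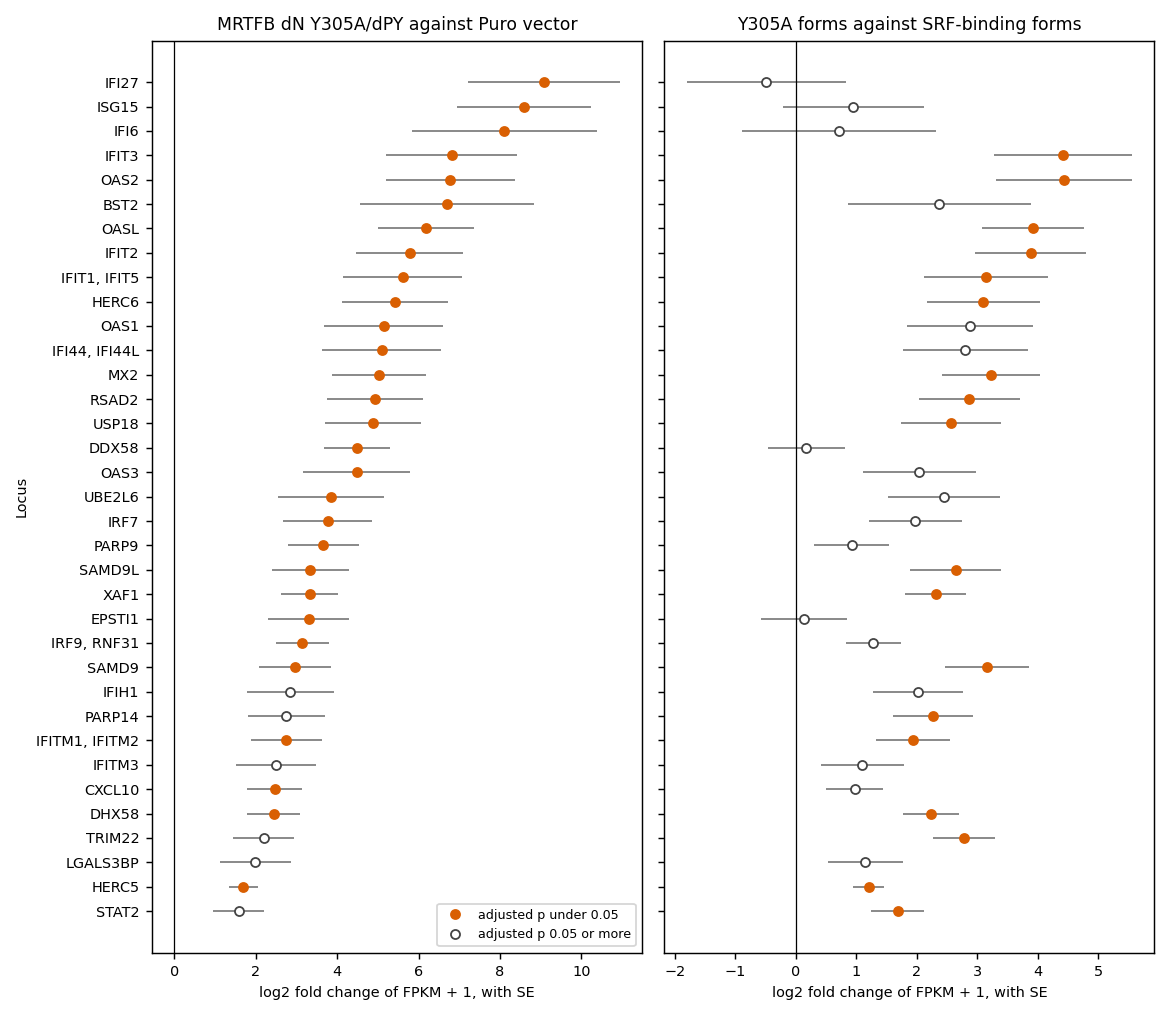
Log2 fold change of FPKM + 1 (points) with its SE (bars) of each locus in MRTFB dN Y305A/dPY against the Puro vector (left) and in the Y305A forms against the SRF-binding forms (right); filled points have an adjusted p under 0.05. All 35 points on the left lie above 0, whereas IFI27, ISG15, IFI6, DDX58 and EPSTI1 lie near 0 on the right, between −0.49 and 0.95.

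Members were low in both YAP 5SA libraries, but the Hygro vector spread over nearly the whole range of the data. Of 35 loci 0 passed in YAP 5SA against the Hygro vector in limma, against 3.91% of all loci higher and 4.3% lower. At an unadjusted p under 0.05 were 12, given without the share of all loci at that level. All 35 fold changes were below 0, with a median of −2.19, against −0.01 over all loci. In 26 loci both YAP 5SA libraries lay below both Hygro vector libraries, as in 29.1% of all loci. The median was −0.32 without Hygro vector replicate 1, with 0 loci past the threshold, and −3.78 without Hygro vector replicate 2, with 15 lower. Against the Puro vector the median was −0.05, with 0 loci past the threshold (limma, 0 at an unadjusted p under 0.05), where 5.56% of all loci were higher and 4.25% lower. The empty vectors also differed from each other. ISG15 was lower in the Puro vector than in the Hygro vector, with a log2 fold change of −5.54 ± 1.64 (adjusted p = 0.0474), and so was SAMD9, with −3.11 ± 0.89 (adjusted p = 0.0455), while none of the 35 loci was higher (8.53% and 5.68% of all loci). In 21 loci both Puro vector libraries lay below both Hygro vector libraries (30.3% of all loci). The count was 0 without Hygro vector replicate 1 or either Puro vector replicate, and 8 without Hygro vector replicate 2. Scaling by the median of ratios left 0.

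**Figure D4:**
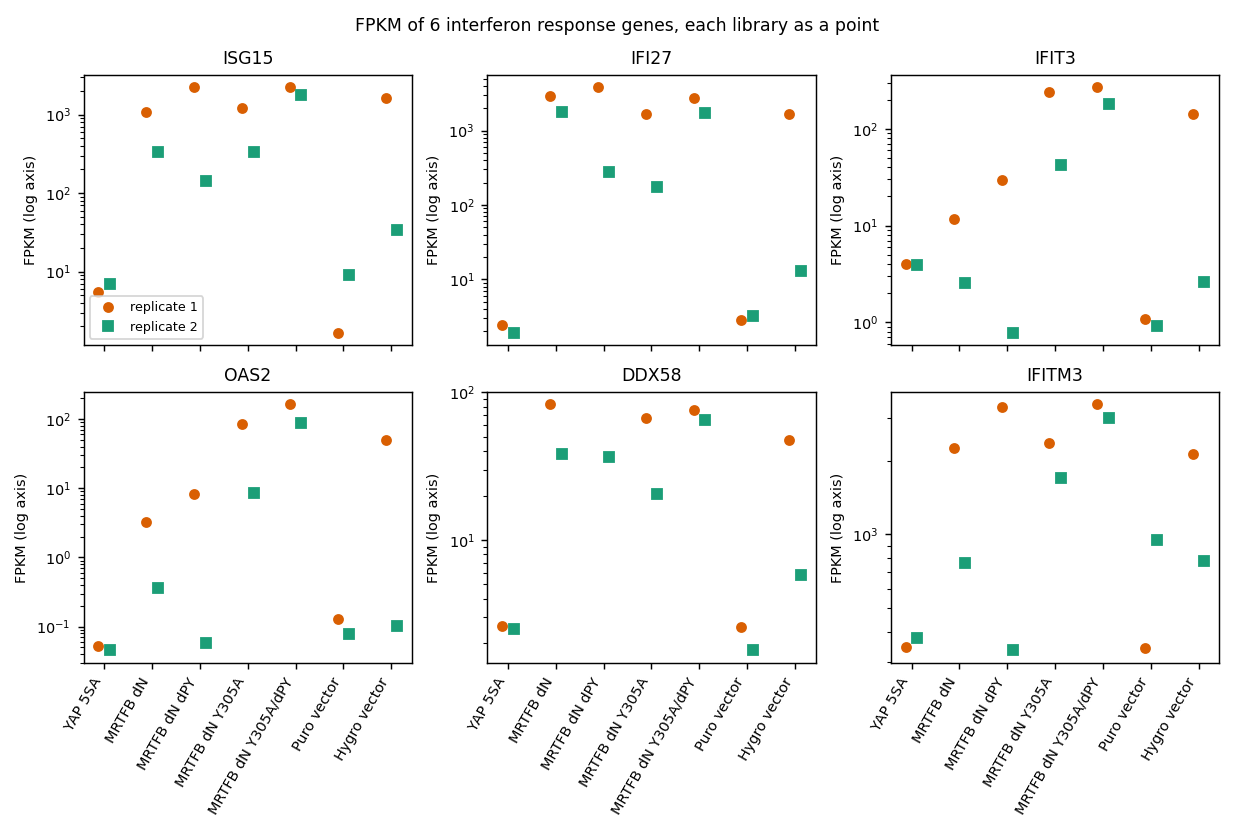
FPKM (log axis) of 6 members in each library, with replicate 1 as circles and replicate 2 as squares; DDX58 has no value in MRTFB dN dPY replicate 1. ISG15 and IFI27 are high in all 8 MRTFB libraries, at 142 FPKM or more, and Hygro vector replicate 1 lies above replicate 2 in all 6 panels.

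The RNA sensors differed in how they followed the forms. DDX58, which encodes RIG-I, the sensor of short double-stranded RNA ends, had 75.3 and 65.2 FPKM in MRTFB dN Y305A/dPY, 67 and 20.4 in MRTFB dN Y305A, no value and 36.3 in MRTFB dN dPY and 82.7 and 38.2 in MRTFB dN, against 2.56 and 1.79 in the Puro vector. Its 7 measured values in the MRTFB forms all lay above the Puro vector, and its level in SRF-binding forms reached that of Y305A forms. DDX58 had 2.62 and 2.49 FPKM with YAP 5SA, against 47.6 and 5.84 with the Hygro vector. DHX58, which encodes LGP2, a regulator of these sensors, had 9.08 and 15.1 FPKM in MRTFB dN Y305A/dPY, 5.53 and 4.31 in MRTFB dN Y305A, 1.83 and 0.314 in MRTFB dN dPY and 1.29 and 0.35 in MRTFB dN, against 0.775 and 2.1 in the Puro vector. DHX58 rose in MRTFB dN Y305A/dPY by 2.44 ± 0.65 (adjusted p = 0.023) and was higher in the Y305A forms than in the SRF-binding forms by 2.23 ± 0.46 (adjusted p = 0.0038). It had 0.5 and 0.536 FPKM with YAP 5SA, against 8.96 and 0.945 with the Hygro vector. IFIH1, the MDA5 sensor of long double-stranded RNA, lay between 1.86 FPKM (MRTFB dN dPY replicate 2) and 49.1 FPKM (Hygro vector replicate 1). It did not pass in any comparison, with 2.85 ± 1.06 (adjusted p = 0.069) in MRTFB dN Y305A/dPY.

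Among the transcription factors, the locus of IRF9, the DNA-binding part of the interferon complex, had 101 and 100.2 FPKM in MRTFB dN Y305A/dPY, 76.5 and 44.4 in MRTFB dN Y305A, 55.9 and 13.6 in MRTFB dN dPY and 45.3 and 26 in MRTFB dN, against 8.87 and 12.4 in the Puro vector. Every MRTFB library lay above the higher Puro vector library. IRF9 had 12 and 8.41 FPKM with YAP 5SA, against 64.1 and 18.9 with the Hygro vector. A rise was found in MRTFB dN Y305A/dPY, by 3.14 ± 0.65 (adjusted p = 0.009), and the rise in MRTFB dN Y305A is given above. STAT2, its partner, lay between 6.41 FPKM (MRTFB dN replicate 1) and 67.7 FPKM (MRTFB dN Y305A/dPY replicate 2). All 4 SRF-binding libraries lay below both Puro vector libraries, at 6.41 to 9.29 FPKM, against 11.6 and 13.4. STAT2 was higher in the Y305A forms by 1.68 ± 0.44 (adjusted p = 0.014) and did not pass in MRTFB dN Y305A/dPY against the Puro vector (1.58 ± 0.63 (adjusted p = 0.084)). IRF7, which drives interferon alpha genes, lay between 1.23 FPKM (YAP 5SA replicate 2) and 60.9 FPKM (MRTFB dN Y305A/dPY replicate 2) and rose in MRTFB dN Y305A/dPY by 3.77 ± 1.09 (adjusted p = 0.03).

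Most antiviral effectors were higher in the Y305A forms than in the SRF-binding forms; OAS1 and OAS3 did not pass there. IFIT3, which binds IFIT1 on viral RNA, had 272 and 182 FPKM in MRTFB dN Y305A/dPY, 239.9 and 41.8 in MRTFB dN Y305A, 29.6 and 0.78 in MRTFB dN dPY and 11.8 and 2.54 in MRTFB dN, against 1.08 and 0.913 in the Puro vector. MRTFB dN dPY replicate 2 lay below both Puro vector libraries, and every Y305A library lay above every SRF-binding one. IFIT3 had 4.02 and 3.94 FPKM with YAP 5SA, against 142 and 2.62 with the Hygro vector. The rise in MRTFB dN Y305A/dPY was 6.81 ± 1.61 (adjusted p = 0.014). IFIT2, a related RNA-binding protein, had 90.8 and 105 FPKM in MRTFB dN Y305A/dPY, 88.5 and 26.9 in MRTFB dN Y305A, 11.3 and 0.725 in MRTFB dN dPY and 5.86 and 2.53 in MRTFB dN, against 0.819 and 0.782 in the Puro vector. MRTFB dN dPY replicate 2 was the lowest of these 10 libraries. IFIT2 had 7.7 and 7.54 FPKM with YAP 5SA, against 112 and 2.74 with the Hygro vector, and Hygro vector replicate 1 was the highest of all libraries. Against the Puro vector it rose in MRTFB dN Y305A/dPY by 5.78 ± 1.31 (adjusted p = 0.012). The locus of IFIT1 and IFIT5 had 292 and 177 FPKM in MRTFB dN Y305A/dPY, 235 and 36.4 in MRTFB dN Y305A, 63 and 3.84 in MRTFB dN dPY and 32.5 and 6.24 in MRTFB dN, against 3.18 and 4.22 in the Puro vector. IFIT1 binds viral RNA whose cap lacks methylation. The locus had 6.36 and 7.9 FPKM with YAP 5SA, against 161 and 7.3 with the Hygro vector. Its rise over the Puro vector in MRTFB dN Y305A/dPY was 5.61 ± 1.46 (adjusted p = 0.02), and in the Y305A forms against the SRF-binding forms by 3.14 ± 1.03 (adjusted p = 0.04).

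The oligoadenylate synthetases make the second messenger that activates RNase L. OAS2 had 163 and 88.7 FPKM in MRTFB dN Y305A/dPY, 85.6 and 8.63 in MRTFB dN Y305A, 8.13 and 0.058 in MRTFB dN dPY and 3.26 and 0.366 in MRTFB dN, against 0.13 and 0.0769 in the Puro vector. Replicate 2 of MRTFB dN dPY lay below both Puro vector libraries, and the lowest library of the Y305A forms exceeded the highest of the SRF-binding forms only narrowly. OAS2 had 0.053 and 0.0451 FPKM with YAP 5SA, against 49.3 and 0.103 with the Hygro vector, so the vector replicates spanned most of the range. It rose in MRTFB dN Y305A/dPY by 6.78 ± 1.59 (adjusted p = 0.014). OAS1 had 198 and 147 FPKM in MRTFB dN Y305A/dPY, 143 and 31.9 in MRTFB dN Y305A, 57.1 and 1.36 in MRTFB dN dPY and 42.5 and 7.12 in MRTFB dN, against 4.09 and 3.66 in the Puro vector. MRTFB dN dPY replicate 2 lay below both Puro vector libraries. OAS1 had 1.77 and 2.13 FPKM with YAP 5SA, against 165 and 11.8 with the Hygro vector. A rise was found in MRTFB dN Y305A/dPY, by 5.14 ± 1.47 (adjusted p = 0.028) and did not pass between the Y305A and SRF-binding forms (2.88 ± 1.04 (adjusted p = 0.058)). OAS3 lay between 3.15 FPKM (MRTFB dN dPY replicate 2) and 139 FPKM (MRTFB dN Y305A/dPY replicate 1) and rose in MRTFB dN Y305A/dPY by 4.48 ± 1.32 (adjusted p = 0.031). OASL, a family member without synthetase activity that binds RIG-I, had 96.3 and 144 FPKM in MRTFB dN Y305A/dPY, 79.8 and 51.4 in MRTFB dN Y305A, 21.7 and 0.451 in MRTFB dN dPY and 9.85 and 2.19 in MRTFB dN, against 0.639 and 0.645 in the Puro vector. Every Y305A library lay above every SRF-binding one. OASL had 0.146 and 0.309 FPKM with YAP 5SA, against 57.8 and 5.76 with the Hygro vector. The rise in MRTFB dN Y305A/dPY was 6.18 ± 1.18 (adjusted p = 0.0068).

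MX2, a dynamin-like GTPase known for blocking HIV, had 41.5 and 30.2 FPKM in MRTFB dN Y305A/dPY, 19.7 and 1.85 in MRTFB dN Y305A, 3.2 and 0.0222 in MRTFB dN dPY and 0.967 and 0.197 in MRTFB dN, against 0.218 and 0.0296 in the Puro vector. It was at or under 0.218 FPKM in YAP 5SA, the Puro vector and replicate 2 of MRTFB dN, MRTFB dN dPY and the Hygro vector. MX2 had 0.0247 and 0 FPKM with YAP 5SA, against 13.5 and 0.0147 with the Hygro vector. Against the Puro vector it rose in MRTFB dN Y305A/dPY by 5.02 ± 1.15 (adjusted p = 0.013) and was higher in the Y305A forms by 3.23 ± 0.81 (adjusted p = 0.011). RSAD2, which encodes viperin, an enzyme that makes a chain-terminating nucleotide, had 30.7 and 35.2 FPKM in MRTFB dN Y305A/dPY, 23.3 and 5.34 in MRTFB dN Y305A, 6.23 and 0.166 in MRTFB dN dPY and 3.56 and 0.614 in MRTFB dN, against 0.0906 and 0.127 in the Puro vector. Both MRTFB dN Y305A/dPY libraries were the highest, as for MX2. RSAD2 had 0.0924 and 0.0704 FPKM with YAP 5SA, against 20.8 and 0.341 with the Hygro vector. Its rise over the Puro vector in MRTFB dN Y305A/dPY was 4.93 ± 1.18 (adjusted p = 0.015) and was higher in the Y305A forms by 2.87 ± 0.83 (adjusted p = 0.023). SAMD9, a restriction factor for poxviruses, had 74.5 and 42.6 FPKM in MRTFB dN Y305A/dPY, 64.6 and 12.3 in MRTFB dN Y305A, no value and 1.88 in MRTFB dN dPY and 11.9 and 3.19 in MRTFB dN, against 10.4 and 3.69 in the Puro vector. Its Puro vector values overlapped those of MRTFB dN. SAMD9 had 9.45 and 11.7 FPKM with YAP 5SA, against 129 and 29.5 with the Hygro vector, and the vector value of replicate 1 was the highest of the 13 measured. It rose in MRTFB dN Y305A/dPY by 2.97 ± 0.89 (adjusted p = 0.036), but against the Hygro vector the log2 fold change was −0.14 (adjusted p = 0.98). It was higher in the Y305A forms by 3.16 ± 0.70 (adjusted p = 0.0068). SAMD9L, its paralog, had 14 and 14 FPKM in MRTFB dN Y305A/dPY, 11.7 and 2.48 in MRTFB dN Y305A, no value and 0.184 in MRTFB dN dPY and 2.25 and 0.449 in MRTFB dN, against 0.618 and 0.357 in the Puro vector. Y305A libraries lay above all measured SRF-binding ones. SAMD9L had 0.992 and 1.06 FPKM with YAP 5SA, against 26.4 and 1.54 with the Hygro vector. A rise was found in MRTFB dN Y305A/dPY, by 3.34 ± 0.94 (adjusted p = 0.03) and was higher in the Y305A forms by 2.64 ± 0.75 (adjusted p = 0.023).

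The ISG15 system attaches a small ubiquitin-like protein to newly made proteins. ISG15 itself had 2259.8 and 1767 FPKM in MRTFB dN Y305A/dPY, 1224 and 335 in MRTFB dN Y305A, 2254 and 142 in MRTFB dN dPY and 1072 and 336 in MRTFB dN, against 1.66 and 9.09 in the Puro vector. All 8 MRTFB libraries lay above both Puro vector libraries, in SRF-binding and Y305A forms alike. ISG15 had 5.53 and 6.92 FPKM with YAP 5SA, against 1642 and 34.3 with the Hygro vector. HERC5, the main ISG15 ligase in human cells, had 2.13 and 2.68 FPKM in MRTFB dN Y305A/dPY, 1.28 and 0.356 in MRTFB dN Y305A, 0.084 and 0 in MRTFB dN dPY and 0.122 and 0.0409 in MRTFB dN, against 0.0452 and 0.0542 in the Puro vector. It was above 1 FPKM only in both MRTFB dN Y305A/dPY libraries and in replicate 1 of MRTFB dN Y305A and of the Hygro vector. HERC5 had 0.0103 and 0.0117 FPKM with YAP 5SA, against 1.42 and 0.0179 with the Hygro vector. The rise in MRTFB dN Y305A/dPY was 1.69 ± 0.36 (limma, adjusted p = 0.0097). HERC5 was higher in the Y305A forms by 1.20 ± 0.25 (limma, adjusted p = 0.0043). It passed the filter through the Y305A forms, so that difference from the SRF-binding forms is no independent result. HERC6, a related ligase, had 140.2 and 78.8 FPKM in MRTFB dN Y305A/dPY, 99.2 and 23.8 in MRTFB dN Y305A, 32.4 and 1.28 in MRTFB dN dPY and 16.5 and 2.94 in MRTFB dN, against 2.6 and 0.698 in the Puro vector. The Y305A forms lay above the Puro vector in both replicates, while MRTFB dN dPY replicate 2 overlapped it. HERC6 had 3.98 and 3.73 FPKM with YAP 5SA, against 77.5 and 7.05 with the Hygro vector. Against the Puro vector it rose in MRTFB dN Y305A/dPY by 5.42 ± 1.31 (adjusted p = 0.016) and was higher in the Y305A forms by 3.10 ± 0.93 (adjusted p = 0.027). USP18, which removes ISG15 and also restrains the type I interferon receptor, had 72.2 and 62.7 FPKM in MRTFB dN Y305A/dPY, 49.2 and 9.15 in MRTFB dN Y305A, 16.8 and 1.02 in MRTFB dN dPY and 13.7 and 2.7 in MRTFB dN, against 0.795 and 2.03 in the Puro vector. In MRTFB dN dPY replicate 2 it was within the range of the Puro vector. USP18 had 1.9 and 1.73 FPKM with YAP 5SA, against 27 and 2.35 with the Hygro vector. Its rise over the Puro vector in MRTFB dN Y305A/dPY was 4.87 ± 1.18 (adjusted p = 0.016) and was higher in the Y305A forms by 2.56 ± 0.83 (adjusted p = 0.038). UBE2L6, the conjugating enzyme of ISG15, lay between 0.0871 FPKM (MRTFB dN dPY replicate 2) and 30.7 FPKM (Hygro vector replicate 1) and rose in MRTFB dN Y305A/dPY by 3.85 ± 1.30 (adjusted p = 0.0496).

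Membrane and secreted products included members that were well expressed in every library. BST2, which encodes tetherin, a protein that holds budding virions on the cell, had 452 and 216 FPKM in MRTFB dN Y305A/dPY, 185 and 20.1 in MRTFB dN Y305A, 271 and 0.995 in MRTFB dN dPY and 74.3 and 12.1 in MRTFB dN, against 1.12 and 3.28 in the Puro vector. The replicates of MRTFB dN dPY were the farthest apart of any member in that group. BST2 had 0.42 and 0.242 FPKM with YAP 5SA, against 171 and 3.17 with the Hygro vector. It rose in MRTFB dN Y305A/dPY by 6.70 ± 2.14 (adjusted p = 0.042) and did not pass in the other comparisons. The locus of IFITM1 and IFITM2, proteins that block fusion of virus and cell membranes, had 856 and 1218 FPKM in MRTFB dN Y305A/dPY, 521 and 395 in MRTFB dN Y305A, 423 and 61.7 in MRTFB dN dPY and 262 and 144 in MRTFB dN, against 102 and 222 in the Puro vector. It was well expressed in every library, Puro vector included. The locus had 206 and 269 FPKM with YAP 5SA, against 1187 and 276 with the Hygro vector. A rise was found in MRTFB dN Y305A/dPY, by 2.75 ± 0.87 (adjusted p = 0.04) and was higher in the Y305A forms by 1.93 ± 0.61 (adjusted p = 0.034). IFITM3 lay between 335 FPKM (MRTFB dN dPY replicate 2) and 3399.8 FPKM (MRTFB dN Y305A/dPY replicate 1) and did not pass in any comparison. IFITM genes are near-identical copies, so reads of one may have been assigned to another. LGALS3BP, a secreted glycoprotein, lay between 49.5 FPKM (YAP 5SA replicate 2) and 865 FPKM (Hygro vector replicate 1) and also passed in none. CXCL10, a chemokine for T cells, lay between 0.0338 FPKM (YAP 5SA replicate 1) and 11.3 FPKM (MRTFB dN Y305A/dPY replicate 2) and rose in MRTFB dN Y305A/dPY by 2.46 ± 0.67 (adjusted p = 0.024).

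IFI27, a mitochondrial protein gene, had 2757 and 1734 FPKM in MRTFB dN Y305A/dPY, 1687 and 177 in MRTFB dN Y305A, 3869 and 275 in MRTFB dN dPY and 2917 and 1789 in MRTFB dN, against 2.85 and 3.26 in the Puro vector. Its lowest MRTFB library was more than any Puro vector library. IFI27 had 2.46 and 1.91 FPKM with YAP 5SA, against 1664 and 12.9 with the Hygro vector. IFI6, whose product acts at the endoplasmic reticulum and mitochondria, had 3076 and 3054 FPKM in MRTFB dN Y305A/dPY, 1597 and 239 in MRTFB dN Y305A, 4837 and 65.3 in MRTFB dN dPY and 1966 and 788 in MRTFB dN, against 8.4 and 12 in the Puro vector. Replicate 1 of MRTFB dN dPY held the highest value of any member in any library. IFI6 had 9.15 and 7.3 FPKM with YAP 5SA, against 2660.2 and 10.1 with the Hygro vector, the largest gap of any member in the Hygro vector. The locus of IFI44 and IFI44L had 76.2 and 122 FPKM in MRTFB dN Y305A/dPY, 54.9 and 27.1 in MRTFB dN Y305A, 31.9 and 1.21 in MRTFB dN dPY and 15 and 4.49 in MRTFB dN, against 2.48 and 1.35 in the Puro vector. Replicate 2 of MRTFB dN dPY lay below both Puro vector libraries. The locus had 3.04 and 3.81 FPKM with YAP 5SA, against 133 and 3.04 with the Hygro vector. The rise in MRTFB dN Y305A/dPY was 5.09 ± 1.46 (adjusted p = 0.028).

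EPSTI1 had 24.5 and 11.8 FPKM in MRTFB dN Y305A/dPY, 14.7 and 2.77 in MRTFB dN Y305A, 19.9 and 2.27 in MRTFB dN dPY and 21.8 and 7.45 in MRTFB dN, against 0.972 and 0.71 in the Puro vector. All MRTFB libraries lay above both Puro vector libraries, and the SRF-binding and Y305A forms overlapped. EPSTI1 had 1.85 and 2 FPKM with YAP 5SA, against 18.3 and 2.35 with the Hygro vector. Against the Puro vector it rose in MRTFB dN Y305A/dPY by 3.30 ± 1.00 (adjusted p = 0.035). PARP9, a partner of the ubiquitin ligase DTX3L, had 69.9 and 54.3 FPKM in MRTFB dN Y305A/dPY, 49.3 and 17.1 in MRTFB dN Y305A, 48.2 and 8.72 in MRTFB dN dPY and 37.7 and 14 in MRTFB dN, against 3.87 and 4.01 in the Puro vector. Here too every MRTFB library lay above both of the Puro vector. PARP9 had 4.16 and 4.65 FPKM with YAP 5SA, against 55 and 9.21 with the Hygro vector. Its rise over the Puro vector in MRTFB dN Y305A/dPY was 3.66 ± 0.87 (adjusted p = 0.015). XAF1, a binding partner of the apoptosis inhibitor XIAP, had 10.01 and 8.09 FPKM in MRTFB dN Y305A/dPY, 3.96 and 0.219 in MRTFB dN Y305A, 0 and 0 in MRTFB dN dPY and 0 and 0 in MRTFB dN, against 0 and 0 in the Puro vector. It was listed at 0 in all SRF-binding and Puro vector libraries, so no fold is given. XAF1 had 0.0107 and 0 FPKM with YAP 5SA, against 4.53 and 0 with the Hygro vector. The difference on the log2(FPKM + 1) scale passed for MRTFB dN Y305A/dPY against the Puro vector (adjusted p = 0.0099) and for the Y305A forms against the SRF-binding forms (adjusted p = 0.005), in limma. XAF1 passed the filter through the Y305A forms, so its difference between them and the SRF-binding forms is no independent result. PARP14, an ADP-ribosyltransferase, lay between 3.27 FPKM (MRTFB dN dPY replicate 2) and 67.2 FPKM (MRTFB dN Y305A/dPY replicate 2) and was higher in the Y305A forms by 2.27 ± 0.66 (adjusted p = 0.024). TRIM22, a ubiquitin ligase, lay between 2.44 FPKM (MRTFB dN dPY replicate 2) and 91.9 FPKM (Hygro vector replicate 1) and was higher in the Y305A forms by 2.78 ± 0.52 (adjusted p = 0.0022), with all 4 Y305A libraries above all 4 SRF-binding ones.

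Of the interferon transcripts, IFNL1 was low but present in the libraries where the members were high. IFNB1 was listed at 0 in 1 of those libraries, MRTFB dN Y305A replicate 1. IFNL1, a type III interferon, had 3.88 and 9.06 FPKM in MRTFB dN Y305A/dPY, 2.48 and 0.754 in MRTFB dN Y305A, 1.01 and 0 in MRTFB dN dPY and 0.384 and 0.106 in MRTFB dN, against 0 and 0.187 in the Puro vector. It had 0 and 0 FPKM with YAP 5SA, against 4.98 and 0 with the Hygro vector. Its highest libraries were both MRTFB dN Y305A/dPY libraries, Hygro vector replicate 1 and MRTFB dN Y305A replicate 1, and it was listed at 0 in both YAP 5SA libraries, Puro vector replicate 1, Hygro vector replicate 2 and MRTFB dN dPY replicate 2. IFNL1 was higher in MRTFB dN Y305A/dPY than in the Puro vector by 2.68 ± 0.70 (adjusted p = 0.021) and in the Y305A forms than in the SRF-binding forms by 1.65 ± 0.49 (adjusted p = 0.027). IFNL2 and IFNL3, near-identical copies between which reads could be split, also passed in MRTFB dN Y305A/dPY (limma, adjusted p = 0.028 and 0.017); both were listed at 0 in the Puro vector, so no fold is given. IFNB1 stayed under 1 FPKM in all 13 measured libraries and was not tested; it had 0.379 and 0.668 FPKM in MRTFB dN Y305A/dPY, 0 and 0.0773 in MRTFB dN Y305A, no value and 0 in MRTFB dN dPY and 0.526 and 0.218 in MRTFB dN, against 0 and 0 in the Puro vector, and 0 and 0 FPKM with YAP 5SA, against 0.992 and 0 with the Hygro vector. IFNE, an interferon of epithelia, was highest in the Puro vector: it had 0.0688 and 0.205 FPKM in MRTFB dN Y305A/dPY, 0.0687 and 0.233 in MRTFB dN Y305A, no value and 0.289 in MRTFB dN dPY and 0.0394 and 0.0993 in MRTFB dN, against 2.81 and 1.9 in the Puro vector, and 0.295 and 0.217 FPKM with YAP 5SA, against 0.483 and 0.187 with the Hygro vector. It reached 1 FPKM only in the Puro vector and so passed the filter through that group alone. Its lower level in all 4 MRTFB groups than in the Puro vector is therefore no independent result. IFNA1, IFNA2, IFNK and IFNG did not pass the filter. A level so low rests on few fragments, and the files give no counts behind it.

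**Figure D5:**
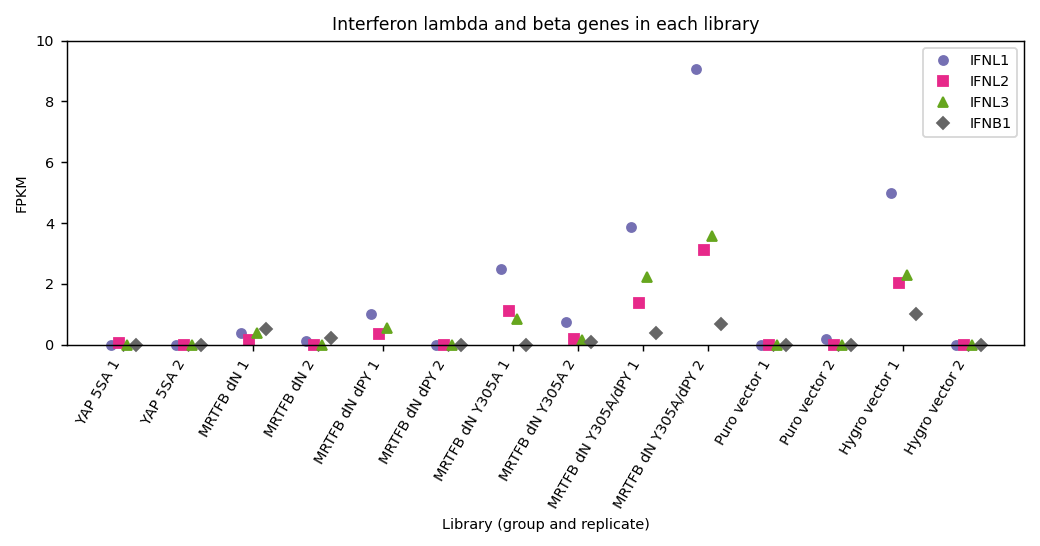
FPKM of IFNL1, IFNL2, IFNL3 and IFNB1 in each library; IFNB1 has no value in MRTFB dN dPY replicate 1. IFNL1 reaches 3.88 and 9.06 FPKM in MRTFB dN Y305A/dPY and 4.98 in Hygro vector replicate 1, and is at or near 0 in YAP 5SA and the Puro vector.

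Receptors and kinases were present throughout. Of 9 loci, 2 (JAK1 and IFNLR1) rose in each Y305A form against the Puro vector and none fell, against 15% and 14.2% of all loci that rose. In each SRF-binding form 1 rose (IFNLR1, the lambda receptor chain) and 2 fell (IFNAR2 and IFNGR1), against 21.8% and 21% of all loci that rose and 15% and 14.8% that fell, so these counts are near the shares of all loci. IFNAR1 had 13.9 and 8.7 FPKM in MRTFB dN Y305A/dPY, 13 and 8.82 in MRTFB dN Y305A, 19.3 and 16.3 in MRTFB dN dPY and 14.3 and 13.9 in MRTFB dN, against 9.73 and 11.8 in the Puro vector, and 10.4 and 12 FPKM with YAP 5SA, against 13.7 and 10.9 with the Hygro vector, and did not pass. IFNAR2 had 7.76 and 6.9 FPKM in MRTFB dN Y305A/dPY, 7.71 and 9 in MRTFB dN Y305A, 3.17 and 3.98 in MRTFB dN dPY and 3.12 and 3.17 in MRTFB dN, against 6.77 and 12.2 in the Puro vector, and 6.31 and 5.38 FPKM with YAP 5SA, against 5.61 and 6.51 with the Hygro vector. It was higher in the Y305A forms than in the SRF-binding forms by 1.02 ± 0.19 (adjusted p = 0.0017). JAK1 had 36.1 and 25.1 FPKM in MRTFB dN Y305A/dPY, 36 and 22.6 in MRTFB dN Y305A, 18.1 and 20.7 in MRTFB dN dPY and 20.02 and 19 in MRTFB dN, against 11.4 and 15.4 in the Puro vector, and 24.4 and 23.6 FPKM with YAP 5SA, against 24.5 and 18.5 with the Hygro vector. It rose by 1.13 ± 0.29 (adjusted p = 0.019) in MRTFB dN Y305A/dPY.

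Of 15 loci that act in nucleic acid sensing before interferon, 7 were higher in the Y305A forms than in the SRF-binding forms and none lower, against 13.9% and 16.7% of all loci: TMEM173, TICAM1, IKBKE, IRF3, MB21D1 and the loci of TREX1 and TBK1. TMEM173, which encodes STING, the adaptor of the DNA sensor cGAS, had 219 and 165 FPKM in MRTFB dN Y305A/dPY, 216 and 136 in MRTFB dN Y305A, 7.75 and 2.96 in MRTFB dN dPY and 5.81 and 4.97 in MRTFB dN, against 18.4 and 52.8 in the Puro vector. All 4 libraries of the Y305A forms lay above, and all 4 of the SRF-binding forms below, both Puro vector libraries. TMEM173 had 18.1 and 12 FPKM with YAP 5SA, against 26.9 and 17.8 with the Hygro vector. It was higher in the Y305A forms by 4.89 ± 0.36 (adjusted p = 2.3e-06), rose in MRTFB dN Y305A/dPY by 2.56 ± 0.51 (adjusted p = 0.0075) and fell in MRTFB dN, with a log2 fold change of −2.34 ± 0.51 (adjusted p = 0.0056). In MRTFB dN Y305A/dPY against the Puro vector 6 of the 15 rose and none fell, against 15% and 11.4% of all loci: SAMHD1, EIF2AK2, TMEM173, ADAR, TICAM1 and IRF3. In MRTFB dN Y305A 5 rose, against 14.2% of all loci: SAMHD1, TMEM173, TICAM1, ADAR and IRF3. In MRTFB dN 1 of the 15 rose (SAMHD1) and 4 fell (TMEM173, IKBKE and the loci of TREX1 and TBK1), against 21.8% and 15% of all loci. In MRTFB dN dPY 3 fell (TMEM173, IKBKE and the locus of TREX1) and none rose, against 14.8% and 21% of all loci. In YAP 5SA against the Hygro vector 3 fell (TICAM1, IKBKE and the locus of TREX1), against 4.3% of all loci, and in the Puro vector 1 (TICAM1) was lower than in the Hygro vector, against 8.53% of all loci.

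A further 40 interferon response loci outside the 39 members were read from a list of the pathway. In MRTFB dN Y305A/dPY against the Puro vector 29 rose and none fell, against 15% and 11.4% of all loci, among them IFI35, DDX60, RTP4, ISG20 and PLSCR1 with log2 fold changes of 3.89 to 5.63; the median of the 40 was 2.45. In MRTFB dN Y305A 14 rose and none fell, against 14.2% and 11% of all loci, led by DDX60, IFI35, ISG20, PLSCR1, TRIM21 and ZNFX1. In MRTFB dN 6 of the 40 rose and none fell (GBP1, CXCL11, GBP2, TRIM21, ZNFX1 and TDRD7). In MRTFB dN dPY 5 rose (GBP1, GBP2, CXCL11, TRIM21 and ZNFX1). TRIM14 fell there, measured in only 1 library of that group. Both counts of rises are below the 21.8% and 21% of all loci that rose. Between the Y305A and SRF-binding forms 27 were higher, led by ISG20, APOL1, RTP4, DDX60, IFI35 and IRF1, and GBP1 and GBP2 were lower, against 13.9% and 16.7% of all loci. In YAP 5SA against the Hygro vector none rose and 6 fell (ISG20, GBP2, IFI16, ZNFX1, PML and STARD5), against 4.3% of all loci, and in the Puro vector against the Hygro vector none was higher and 8 were lower, against 8.53% of all loci, led by ISG20, GBP1, TRIM21, ZNFX1, PML and GBP2.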

How the data were processed

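RNA from 14 samples of MCF-10A cells (7 groups of 2) was sequenced as stranded mRNA libraries in pairs of reads on an Illumina NextSeq, per the labels' protocols. The values the authors deposited are FPKM per locus, and Bowtie, TopHat, Cufflinks, Cuffnorm and the genome build hg19 are named in the submitters' processing notes, with no versions. No counts were used, so the fragments behind a value are not known. From these, log2(FPKM + 1) was fitted with limma 3.58.1 in R 4.3.3, with a mean for each group, all 14 libraries and an intensity trend, and two-sided p-values were adjusted by Benjamini-Hochberg over the 13137 named loci that had at least 1 FPKM in at least 2 libraries. The spread is estimated with 7 residual degrees of freedom (6 where a value is missing), and a prior of 3.76 (median). Fold changes on this scale understate those of low loci. In MRTFB dN dPY replicate 1, 5143 loci after PPIA on chromosome 7 and on chromosomes 8, 9 and X were treated as missing. Loci shared by several genes are given as one value. Promoter sequences are from RefSeq on GRCh38.p14 and were not joined to the hg19 loci by position. Members and lists were chosen with earlier results of these data known. Named were all members past the threshold; values in all libraries were given for the 14 members with the largest SD among those with a mean of 3 FPKM or more and for members past the threshold in at least 2 comparisons, and pathway lists were limited to the 6 largest changes; some genes that this rule names are not reported here. Alternatives were another pseudocount, no filter, another scaling, no trend, the compared groups alone, the zeros kept, the other vector, a replicate block and leaving out each library. The fit was tested on simulated data.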

Additional observations from a re-analysis of the deposited data

How the results depend on the processing

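Counts are loci past the threshold, of 35. The share of all loci past it in the same refit is not given, except above for the other vector as control. A change in count therefore cannot be read as particular to these loci. Without the filter they were 3 in MRTFB dN, 3 in MRTFB dN Y305A and 16 in MRTFB dN Y305A/dPY against the Puro vector, 0 in the Puro vector against the Hygro vector and 11 in the Y305A forms against the SRF-binding forms. With the compared groups alone they were 0 in MRTFB dN Y305A, 18 in MRTFB dN Y305A/dPY, 0 in the Puro vector against the Hygro vector and 4 in MRTFB dN Y305A against MRTFB dN. With a pseudocount of 0.1 they were 2 in YAP 5SA and 1 in the Puro vector, both against the Hygro vector. With the zeros kept they were 2 in MRTFB dN and 0 in the Puro vector, which was also 0 after scaling by the median of ratios; under that scaling the median of all loci was −0.17 to −0.15 in the 4 comparisons with the Puro vector, where it was 0.07 to 0.10 as deposited, and 0.13 between vectors, where it was −0.07 as deposited. With the Hygro vector as control, 2 were lower in MRTFB dN (median −1.23) and 2 in MRTFB dN dPY (median −0.90), and 0 passed in either Y305A form; SAMD9 in MRTFB dN Y305A/dPY was −0.14. The cause was not tested for any of these. Leaving out 1 library, with the lone sample assumed to vary like the other groups, gave 0 to 15 in YAP 5SA, 2 to 3 in MRTFB dN, 1 to 8 in MRTFB dN dPY, 0 to 15 in MRTFB dN Y305A, 0 to 18 in MRTFB dN Y305A/dPY, 0 to 8 in the Puro vector against the Hygro vector, and 8 to 28 between the Y305A and SRF-binding forms. The median then lay between −0.18 and 2.74 in MRTFB dN dPY against the Puro vector, between −1.51 and 1.32 in MRTFB dN dPY against MRTFB dN and between −0.20 and 1.24 in the dPY forms, with the negative value without MRTFB dN dPY replicate 1 in each; the median of MRTFB dN dPY against MRTFB dN was 0.47 without MRTFB dN replicate 1. The main fit did not pair samples by replicate number, and the labels name no shared batch. Same-numbered deviations correlated above 0.1 in 7 of 21 group pairs (−0.14 to 0.65), among them all 6 pairs of MRTFB groups (0.30 to 0.65). Same-numbered libraries of the MRTFB groups thus varied together in part. With the replicate block the counts were 5 in YAP 5SA, 6 in MRTFB dN dPY, 21 in MRTFB dN Y305A, 9 in the Puro vector against the Hygro vector and 5 in MRTFB dN Y305A against MRTFB dN. With the block in the MRTFB groups alone, chosen after seeing the data, MRTFB dN Y305A against MRTFB dN had 13. Of 859 refits of single members, 568 kept direction and side of the threshold, 290 kept direction but no longer passed and 1 reversed.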

Other observations

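Antigen presentation moved with the members in part. Of 13 loci of MHC class I and antigen processing, 9 rose in MRTFB dN Y305A/dPY against the Puro vector and none fell, against 15% and 11.4% of all loci, among them PSMB10, the locus of HLA-B and HLA-C, PSMB9, HLA-E and PSMB8. In MRTFB dN Y305A 6 rose and none fell (14.2% and 11% of all loci), in MRTFB dN dPY 7 rose (21%) and in MRTFB dN 6 rose (21.8%), while ERAP2, a peptide-trimming enzyme, fell in both SRF-binding forms. PSMB10, a subunit of the immunoproteasome, was higher in the Y305A forms than in the SRF-binding forms by 3.17 ± 0.36 (adjusted p = 6.5e-05) in limma. HLA genes are near-identical copies, so single genes of their loci are uncertain.

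Among 15 NF-kB response loci, 8 were higher in the Y305A forms than in the SRF-binding forms and 2 lower, against 13.9% and 16.7% of all loci, led by CXCL1 at 3.82 ± 0.81 (adjusted p = 0.0042) and CCL20 at 3.44 ± 0.87 (adjusted p = 0.011) in limma, both neutrophil or lymphocyte attractants. TNFAIP3, a brake on NF-kB, was lower, at −2.67 ± 0.39 (adjusted p = 0.00041), and so was ICAM1, at −0.50 ± 0.14 (adjusted p = 0.021). The guanylate-binding protein genes GBP1 and GBP2 went against most interferon response genes in this contrast, at −3.27 ± 0.31 (adjusted p = 1.6e-05) and −3.28 ± 0.26 (adjusted p = 4.4e-06). GBP1 had 24 and 23.8 FPKM in MRTFB dN Y305A/dPY, 16.3 and 6.32 in MRTFB dN Y305A, 194 and 89.2 in MRTFB dN dPY and 221 and 173 in MRTFB dN, against 3.11 and 3.89 in the Puro vector, and 11 and 6.73 FPKM with YAP 5SA, against 25.2 and 26.6 with the Hygro vector. Of 6 brakes on interferon signalling, the locus of PTPN6 and SOCS3 rose in MRTFB dN Y305A/dPY against the Puro vector, and none fell (15% and 11.4% of all loci).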
